A study of Homo sapiens with 19 samples.

Results

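Smooth muscle contractile genes are the 10 genes ACTA2, ACTG2, TPM1, TPM2, TAGLN, CNN1, CALD1, MYH11, MYL9 and DES, chosen by gene symbol out of the 33382 genes listed for each of 19 RNA-seq samples of H1 cells. Each symbol was found on 1 row of every sample, so all 10 genes are described, and each had a TPM above 0 in all 19 samples. H1 is an established human embryonic stem cell (hESC) line, and the study deleted core components of polycomb repressive complex 2 (PRC2), the complex that places the repressive histone mark H3K27me3, to ask how their loss acts on the fate of hESCs. The 6 lines with 2 samples each were wild-type (WT) H1, SUZ12-/- H1, EED-/- H1, the single knockouts EZH2-/- H1 and EZH1-/- H1, and EZH2-/-/EZH1-/- H1, which lacks both. H1-EED-/-/EED-OE cells, in which the endogenous EED gene was deleted and EED came from a doxycycline (DOX) inducible lentiviral transgene, had 1 sample with DOX and 1 sample at each of days 8, 12, 16, 20, 24 and 28 without DOX. The title of the DOX sample also carries day 28 and its labels give no day, so it is a reference kept on DOX and not shown to be a start of the course. All knockouts were made with CRISPR/Cas9 and a donor with a drug resistance cassette (puromycin or neomycin), and for EZH2-/-/EZH1-/- H1 cells the deletion of EZH1 was added to that of EZH2. The cells were kept in mTeSR1 medium on matrigel, without a protocol for muscle differentiation. Within a knockout line the labels of the samples differ by clone or passage, whether WT H1 samples came from separate cultures is not stated, and p-values measure only the spread between these samples. The lines that lack EED, SUZ12 or both EZH enzymes are called the 3 PRC2-null lines here.

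Smooth muscle shortens when myosin filaments pull on thin filaments of actin. Phosphorylation of the myosin regulatory light chain, for which MYL9 codes, starts the cycle, and MYH11 is the myosin heavy chain found in mature smooth muscle. ACTA2 and ACTG2 are the smooth muscle actins of vessels and of the gut, TPM1 and TPM2 are tropomyosins that lie along the actin filament, and CALD1 (caldesmon), CNN1 (calponin) and TAGLN (transgelin, or SM22) bind it. DES (desmin) is an intermediate filament protein of all muscle types. Many of these genes, with the exception of late markers such as MYH11, are also expressed in myofibroblasts and other stromal cells, and several are controlled by serum response factor, SRF, with its partners myocardin and the MRTF proteins through a DNA element called the CArG box.

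TPM, a share of transcripts corrected for transcript length and scaled to the same total in each sample, was the unit of all values, so levels of different genes can be set side by side, while read depth is unknown. In these bulk samples, fewer cells that express a gene and less RNA per cell cannot be told apart. At gene level the targeted genes could not serve as a check of the labels. The study deleted a functional domain of each gene and checked its clones by genomic PCR, qRT-PCR and western blots of targeted proteins. It reported that H3K27me3 was lost in EED-/-, SUZ12-/- and EZH2-/-/EZH1-/- H1 cells. In EZH1-/- H1 and EZH2-/- H1 cells it reported a lowered level of this mark. Whether the deletion of a domain only accounts for the TPM given here was not tested. EED had a TPM of 14.3 and 22.4 in EED-/- H1 and 17.3 and 22.0 in WT H1 cells, and SUZ12 one of 22.9 and 20.8 in SUZ12-/- H1 and 25.2 and 27.9 in WT H1 cells. EZH1 lay at 12.5 and 17.1 in EZH1-/- H1 and 13.7 and 14.3 in WT H1 cells, and EZH2 at 46.9 and 22.0 in EZH2-/- H1 and 54.6 and 58.9 in WT H1 cells. In the EZH2-/-/EZH1-/- H1 samples, EZH1 lay at 9.37 and 6.78 and EZH2 at 31.3 and 20.0. In H1-EED-/-/EED-OE cells EED had a TPM of 108.5 with DOX and 12.6 to 31.6 from day 8 to day 28. The 5 pluripotency genes POU5F1, NANOG, SOX2, LIN28A and DNMT3B together had 4323 to 5652 TPM in the 6 samples of the WT, EZH2-/- and EZH1-/- lines and 108.4 to 385 in the 6 PRC2-null samples. The replicates of EZH2-/-/EZH1-/- H1 cells differed most, with a median absolute log2 difference of 0.505 over genes, and those of SUZ12-/- H1 cells least, with 0.128.

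Against WT H1, 6 of the 10 genes rose and none fell in the average of the 3 PRC2-null lines. A gene is said to rise or fall where its p from limma, adjusted by the Benjamini-Hochberg method over 19100 genes, was at most 1% and log2(TPM + 1) differed at least 3-fold, a scale on which the change of weakly expressed genes is understated. By the same rule 13.6% of all genes tested rose and 5.36% fell. The genes that rose were ACTA2, ACTG2, TAGLN, CALD1, MYL9 and DES, and the 4 that did not pass were TPM1, TPM2, CNN1 and MYH11. Without WT sample 2 the calls of ACTG2 (adjusted p = 0.0149) and MYL9 (0.0281) were lost, and without WT sample 1 that of MYL9 (0.025). The 10 genes had a median log2 fold change of 2.10, beside 0.28 for all genes tested. By line, 7 genes rose in EED-/- H1 (16.2% of all genes), 7 in EZH2-/-/EZH1-/- H1 (11.6%) and 3 in SUZ12-/- H1 cells (14.5%), and 0 fell in each of them (6.09%, 5.66% and 5.21% of all genes). The 7 genes of EED-/- H1 were also those of EZH2-/-/EZH1-/- H1 cells, namely ACTA2, ACTG2, TPM1, TAGLN, CNN1, CALD1 and MYL9. In SUZ12-/- H1 cells ACTA2, ACTG2 and DES rose. Fitted with only their own and the WT samples, EZH2-/-/EZH1-/- H1 cells kept 2 of the 7 calls, ACTA2 and TAGLN. Scaling by median ratios moved the median of all genes in the average from 0.28 to 0.10 and lost the call of MYL9 there (log2 fold change 1.96, adjusted p = 0.0112), and it moved the share of rises among all calls in EED-/- H1 cells from 72.7% to 58%.

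**Figure D1:**
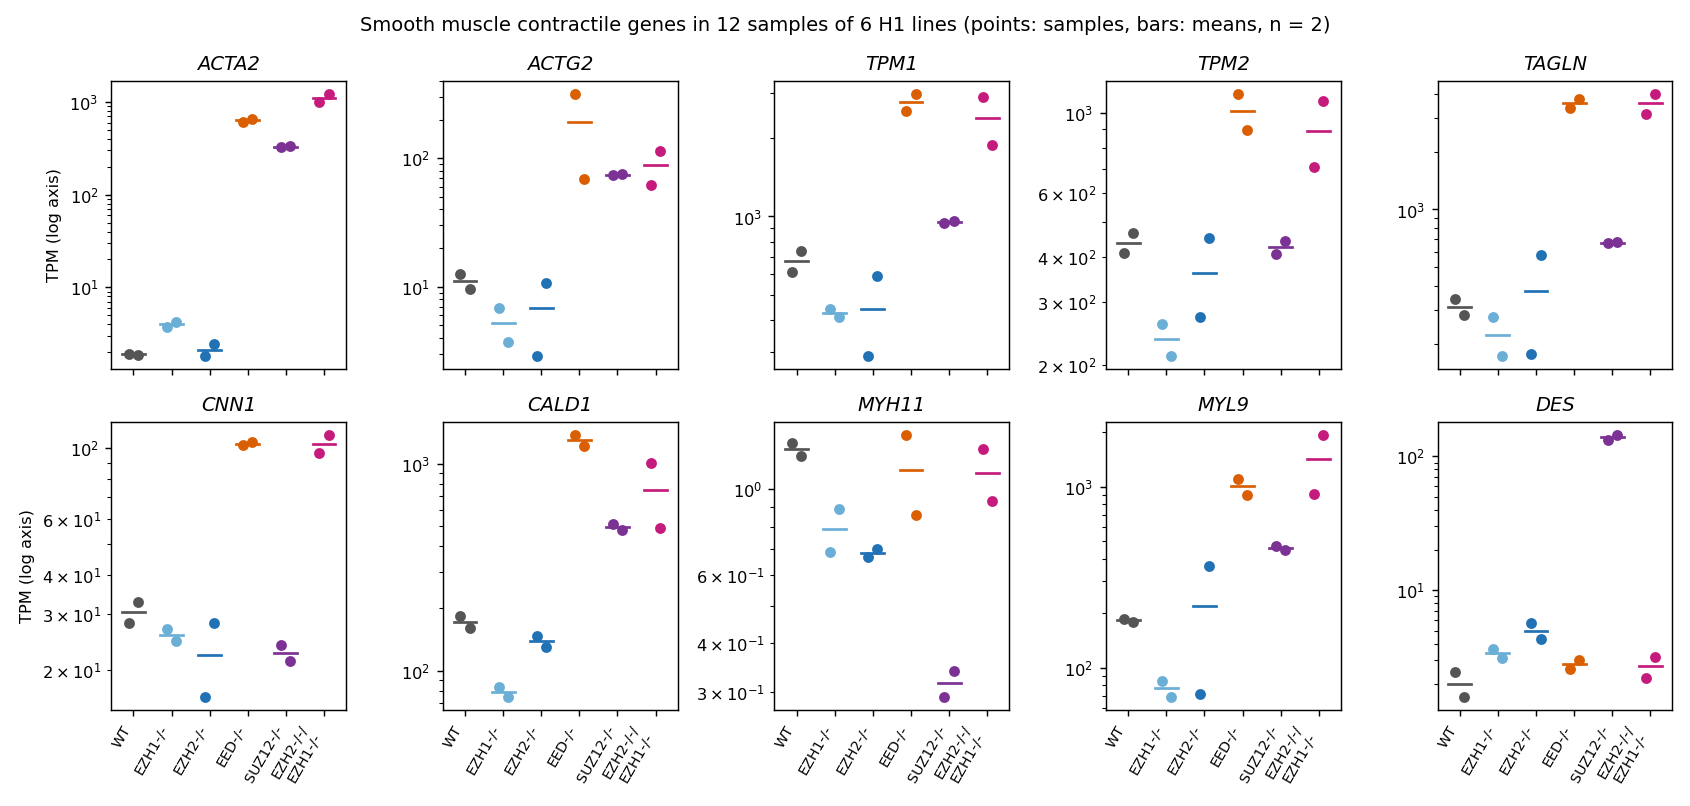
TPM of the 10 genes (log axes, 1 panel per gene) in the 2 samples of each of 6 H1 lines, with points for samples and bars for means. ACTA2, ACTG2, TPM1, TAGLN, CALD1 and MYL9 have every PRC2-null sample (6) above each of the 6 remaining samples, while DES is high only in the 2 SUZ12-/- H1 samples and MYH11 stays at a TPM of at most 1.38.

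In 6 of the 10 genes, ACTA2, ACTG2, TPM1, TAGLN, CALD1 and MYL9, every PRC2-null sample lay above every sample of the WT, EZH2-/- and EZH1-/- lines. Of all genes tested, 24.2% were separated in this direction. The ranges of TPM2, CNN1, MYH11 and DES overlapped. Summed over the 10 genes, the TPM was 973 to 2158 in the 6 samples of the WT, EZH2-/- and EZH1-/- lines, 3552 and 3576 in SUZ12-/- H1, 10544 and 10582 in EED-/- H1, and 9803 and 10808 in EZH2-/-/EZH1-/- H1 cells. SUZ12-/- H1 cells thus lay between the other PRC2-null lines and WT H1 cells in this sum.

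ACTA2, the alpha smooth muscle actin, showed the largest fold change of the 10 genes. Its TPM was 1.90 and 1.88 in WT H1, 3.73 and 4.25 in EZH1-/- and 1.80 and 2.43 in EZH2-/- cells. It was 614 and 658 in the EED-/- line, 326 and 334 for SUZ12-/- and 989.7 and 1218 for EZH2-/-/EZH1-/- cells. Samples of the 3 PRC2-null lines overlapped neither one another nor the other lines. Against WT H1 the ratio of mean TPM was 584 for EZH2-/-/EZH1-/-, 336 for EED-/- and 175 for SUZ12-/- cells, with log2 fold changes of 8.57 ± 0.19, 7.78 ± 0.19 and 6.84 ± 0.19 (SE) and adjusted p of 2.4e-09, 3.4e-09 and 6.2e-09 in limma. Leaving out any 1 of the 12 samples kept the log2 fold change of the average between 7.68 and 7.78.

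ACTG2, the gamma smooth muscle actin of the gut wall, was less abundant. WT H1 samples had a TPM of 12.6 and 9.56, EZH1-/- H1 of 6.78 and 3.74, and EZH2-/- H1 of 2.87 and 10.7. EED-/- H1 samples had 317 and 68.9, SUZ12-/- H1 73.6 and 75.3, and EZH2-/-/EZH1-/- H1 62.4 and 114.9, all above the other lines. The log2 fold changes of 3.63 ± 0.66, 2.65 ± 0.66 and 2.84 ± 0.66 (SE) passed the test in limma with adjusted p of 0.000993, 0.00720 and 0.00557, but with a margin that single samples decide. In EED-/- H1 cells the call was lost without WT sample 2 (adjusted p = 0.0114) and without EED-/- sample 1, the high one (log2 fold change 2.54, adjusted p = 0.0112). For SUZ12-/- H1 cells it was lost without either WT, EZH1-/- or SUZ12-/- sample (adjusted p of 0.0113 to 0.0510), and for EZH2-/-/EZH1-/- H1 cells without WT sample 1 or 2 or its own sample 2 (adjusted p of 0.0256 to 0.0430).

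The bases upstream of the starts of both smooth muscle actin genes are shown because SRF-dependent muscle genes are known for CArG boxes near the start, in which CC and GG flank 6 bases that are A or T. Promoter sequences from RefSeq on GRCh38.p14 were matched for 6 of the 10 genes, ACTA2, ACTG2, TPM1, TPM2, CNN1 and CALD1, with 11 start sites among them. Given 5′ to 3′ along the gene are the 250 bases before 1 start of each actin gene, ACTA2 at chr10:88952774-88953023 on the minus strand and ACTG2 at chr2:73892758-73893007 on the plus strand, with CArG boxes in capitals, including those with 1 base of the 6 that is not A or T.
ACTA2: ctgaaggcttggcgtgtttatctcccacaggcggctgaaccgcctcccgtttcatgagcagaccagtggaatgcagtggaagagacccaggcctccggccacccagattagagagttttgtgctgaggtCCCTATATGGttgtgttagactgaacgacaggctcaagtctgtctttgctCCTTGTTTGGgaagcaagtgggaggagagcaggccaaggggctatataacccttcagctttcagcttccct
ACTG2: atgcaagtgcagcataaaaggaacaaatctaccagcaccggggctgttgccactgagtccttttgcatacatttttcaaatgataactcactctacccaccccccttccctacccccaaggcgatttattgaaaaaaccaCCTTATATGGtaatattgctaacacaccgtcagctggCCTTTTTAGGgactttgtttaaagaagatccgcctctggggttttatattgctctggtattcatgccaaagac
ACTG2 held a full box, CCTTATATGG, starting 110 bases before its start site and another, CCTTTTTAGG, at 73 bases. Windows of the same length held at least 1 full box for 1.16% of 35116 start sites and 2 or more for 0.0313%. ACTA2 held CCCTATATGG at 121 and CCTTGTTTGG at 71 bases before the start, each with 1 base off, where 7.04% of windows held a box with at most 1 base off and 0.587% held 2 or more. One of the 4 windows of CALD1 held CCTAAAGAGG, also 1 base off, at 26 bases. That window, chr7:134711249-134711498, lies before the span of the gene given below (chr7:134744252-134970729). The pattern of the box, though not each printed sequence, is the same on both strands. No match was found in these windows for TPM1, TPM2 and CNN1 or for the other starts of ACTA2 and CALD1. A match describes the letters and no binding was measured.

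The make-up of the muscle actins differed between lines along with their level. Of the summed TPM of ACTA2, ACTG2, the cardiac actin ACTC1 and the skeletal actin ACTA1, ACTA2 made up 2.23 and 2.31% in WT H1, 3.17 to 5.71% in EZH1-/- and 1.55 to 4.88% in EZH2-/- cells, where ACTA1 and ACTC1 together held most of the rest. In PRC2-null samples ACTA2 made up 47.7 to 59.2%. ACTC1 made up 18.0 to 36.1% of the muscle actins there, and was second to ACTA2 in all of these samples but EED-/- sample 1, in which ACTG2 held 25.3%. ACTC1 itself rose over the PRC2-null lines on average (log2 fold change 3.25, adjusted p = 0.000383), from 30.6 and 37.6 TPM in WT H1 to 148 to 896 in the 6 PRC2-null samples. The coding sequences of these 4 genes are similar, and RSEM divides reads that match several genes by estimation. How many reads did so was not measured, so their shares are taken as less certain than their sum.

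**Figure D2:**
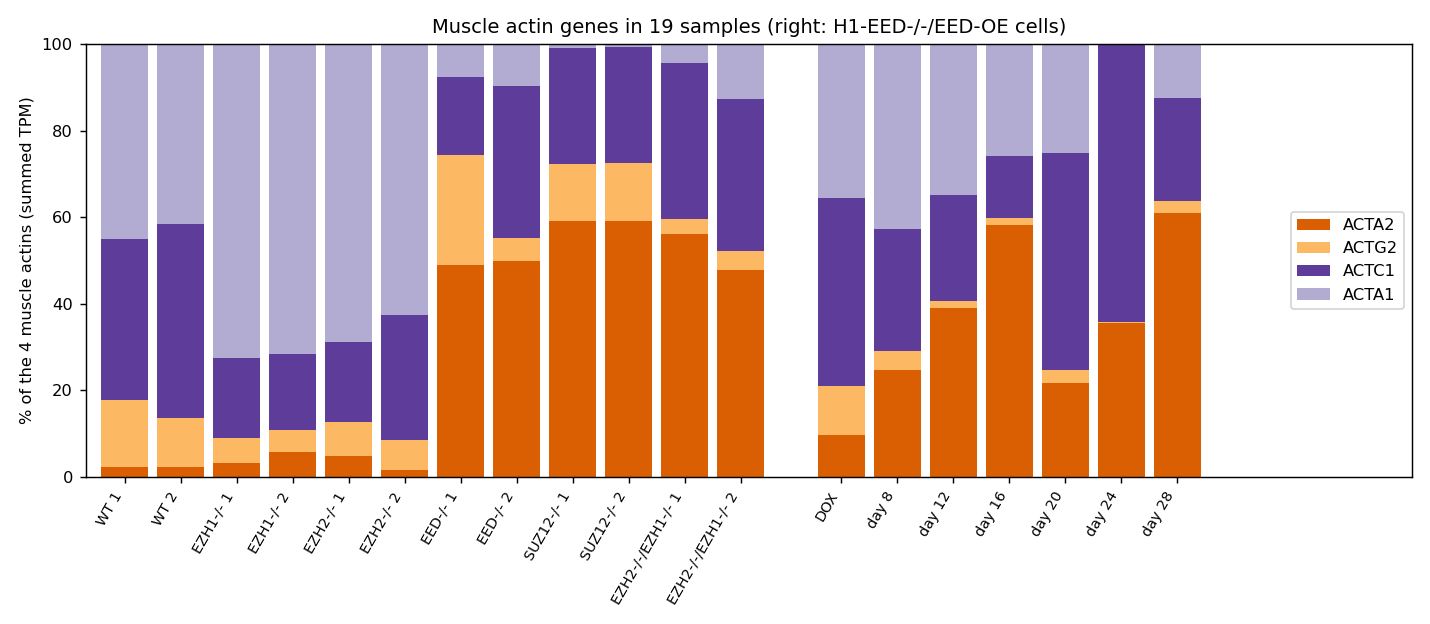
Share of ACTA2, ACTG2, ACTC1 and ACTA1 in their summed TPM (% of the 4 genes, stacked bars from 0 to 100) in the 12 samples of the 6 lines and, on the right, in the 7 samples of H1-EED-/-/EED-OE cells. ACTA2 takes 47.7 to 59.2% in the PRC2-null samples and at most 5.71% in samples of the WT, EZH2-/- and EZH1-/- lines.

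Of the myosin subunits, the regulatory light chain rose and the heavy chain did not. MYL9 had a TPM of 187 and 179 in WT H1, 84.9 and 68.6 in EZH1-/- and 71.8 and 366 in EZH2-/- cells. It was 1109 and 902 in the EED-/- line, 473 and 446 for SUZ12-/- and 907 and 1927 for EZH2-/-/EZH1-/- cells. MYL9 rose in EED-/- H1 (log2 fold change 2.44 ± 0.58, adjusted p = 0.00499) and EZH2-/-/EZH1-/- H1 cells (2.84 ± 0.58, adjusted p = 0.00254), and did not pass in SUZ12-/- H1 cells (1.32 ± 0.58, adjusted p = 0.0844, SE, limma). Its call in EED-/- H1 cells was lost without WT sample 1 or 2 or EED-/- sample 1 or 2 (adjusted p of 0.0229 to 0.0431), and in EZH2-/-/EZH1-/- H1 cells without WT sample 1 or 2 or EZH2-/-/EZH1-/- sample 2 (0.0188 to 0.0209). The non-muscle light chains MYL12A and MYL12B, which serve in every cell, did not pass the 3-fold threshold in the average (log2 fold changes of 0.71 and 0.98), and MYL9 made up 36.4 to 57.5% of the 3 light chains in PRC2-null samples and 10.3 to 40.4% in the others.

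MYH11, the heavy chain of differentiated smooth muscle, had the lowest level of the 10 genes in each of the 6 lines. Its TPM was 1.32 and 1.22 in WT H1, 0.69 and 0.89 in EZH1-/- H1, 0.67 and 0.70 in EZH2-/- H1, 1.38 and 0.86 in the EED-/- line, 0.29 and 0.34 for SUZ12-/- and 1.27 and 0.93 for EZH2-/-/EZH1-/- cells. SUZ12-/- H1 samples were the lowest, with a log2 fold change of -0.79 ± 0.23 that missed the thresholds (adjusted p = 0.0176 in limma). Of the summed TPM of MYH11 and the non-muscle heavy chains MYH9 and MYH10, MYH11 held at most 0.383% in the 12 samples. Its exons overlap those of NDE1 on the opposite strand over 1063 bases, NDE1 had 5.71 to 25.8 TPM, and the library kit is not stated to keep strand, so that reads from this stretch cannot be assigned.

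Among the tropomyosins, TPM1 rose in EED-/- H1 and EZH2-/-/EZH1-/- H1 cells and TPM2 in no line. TPM1 was already abundant in WT H1 cells, with a TPM of 611 and 739, beside 440.2 and 409 in EZH1-/- and 289.6 and 588 in EZH2-/- cells. It reached 2547 and 2957 in EED-/- H1 and 2880.3 and 1886 in EZH2-/-/EZH1-/- H1 cells, beside 940.5 and 959 in SUZ12-/- H1 cells. The log2 fold changes were 2.03 ± 0.30 (adjusted p = 0.000239) and 1.79 ± 0.30 (adjusted p = 0.000721) in the first pair and 0.50 ± 0.30 (adjusted p = 0.196) in SUZ12-/- H1 cells (SE, limma). The call in EZH2-/-/EZH1-/- H1 cells was lost without WT sample 1 (adjusted p = 0.0108) and without its own sample 1 (log2 fold change 1.49). Over the PRC2-null lines on average TPM1 passed the p threshold but not the fold threshold (1.44, adjusted p = 0.000521), and it passed when the SUZ12-/- line was left out (1.91).

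TPM2 ranged from 406 to 1127 TPM in the PRC2-null samples and from 212 to 464 in the others, with the SUZ12-/- H1 samples at 406 and 442 beside 408 and 464 in WT H1. Its log2 fold changes of 1.21 in EED-/- H1 (adjusted p = 0.00316) and 1.00 in EZH2-/-/EZH1-/- H1 (adjusted p = 0.0106) stayed under 3-fold, and in SUZ12-/- H1 it was -0.04 (95% interval -0.62 to 0.55). The share of the tropomyosin TPM that TPM1 took was 50.8 to 58.7% in EED-/- H1 and EZH2-/-/EZH1-/- H1, 40.2 and 40.5% in SUZ12-/- H1, and 16.6 to 31.0% in the other samples, in which the non-muscle TPM3 held 30.3 to 43.8%.

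CALD1, the caldesmon gene, was intermediate. It had a TPM of 184 and 161 in WT H1, 83.7 and 74.6 in EZH1-/- and 147 and 131 in EZH2-/- cells, against 1369.97 and 1214 in the EED-/- line, 508 and 479 for SUZ12-/- and 1000.4 and 489.96 for EZH2-/-/EZH1-/- cells. All 6 PRC2-null samples lay above the others. It rose in EED-/- H1 (log2 fold change 2.90 ± 0.27, adjusted p = 1.05e-05) and EZH2-/-/EZH1-/- H1 cells (2.02 ± 0.27, adjusted p = 0.000174), the latter only with EZH2-/-/EZH1-/- sample 1 in the fit (1.5 without it). In SUZ12-/- H1 cells CALD1 stood just under 3-fold (1.51 ± 0.27, adjusted p = 0.000974, SE, limma) and passed without WT sample 1 (1.61).

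TAGLN, whose product transgelin cross-links actin, was the most abundant of the 10 genes in EED-/- H1 and EZH2-/-/EZH1-/- H1 cells. Its TPM was 340.5 and 283 in WT H1, 274 and 172 in EZH1-/- and 177 and 578 in EZH2-/- cells. EED-/- H1 samples had 3355 and 3779 and EZH2-/-/EZH1-/- H1 samples 3154 and 3982, with log2 fold changes of 3.52 ± 0.43 and 3.51 ± 0.43 (adjusted p of 6.6e-05 and 9.0e-05). SUZ12-/- H1 samples, with 667 and 675, lay above all samples of the WT, EZH2-/- and EZH1-/- lines, but the change against WT H1 did not pass (1.11 ± 0.43, adjusted p = 0.0536, SE, limma). Exons of TAGLN overlap those of PCSK7 on the opposite strand over 2233 bases, and PCSK7 had 19.2 to 107 TPM. TAGLN2, the transgelin of non-muscle cells, rose too in the average of the PRC2-null lines (2.68, adjusted p = 1.9e-07), and TAGLN made up 72.1 to 84.0% of the transgelins in PRC2-null samples and 60 to 83.0% in the others.

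CNN1, calponin 1, was high in 2 of the 3 PRC2-null lines. EED-/- H1 samples had a TPM of 102 and 104 and EZH2-/-/EZH1-/- H1 samples 96.3 and 109.9, while SUZ12-/- H1 samples had 24.0 and 21.4, below the 28.2 and 32.8 of WT H1. EZH1-/- H1 (26.9 and 24.7) and EZH2-/- H1 samples (16.5 and 28.2) lay at or below the WT H1 range. The log2 fold changes were 1.73 ± 0.24 in EED-/- H1 (adjusted p = 0.000164), 1.73 ± 0.24 in EZH2-/-/EZH1-/- H1 (adjusted p = 0.000223) and -0.41 ± 0.24 in SUZ12-/- H1 cells (adjusted p = 0.192, SE, limma). With scaling by median ratios the first pair stood at 1.34 and 1.58, just under 3-fold. CNN2 and CNN3, calponins of non-muscle cells, were more abundant than CNN1 in every one of the 12 samples, and CNN1 made up at most 15.1% of the calponins.

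DES was high in 1 line only. Desmin transcripts were low in WT H1 (TPM of 2.44 and 1.59), EZH1-/- H1 (3.63 and 3.13), EZH2-/- H1 (5.67 and 4.35), EED-/- H1 (2.59 and 3.01) and EZH2-/-/EZH1-/- H1 cells (2.21 and 3.20), and high in SUZ12-/- H1 cells (133 and 144). SUZ12-/- H1 samples stood far above all others, and EZH2-/- H1 samples lay above those of the remaining lines at a low level. The log2 fold change against WT H1 was 5.55 ± 0.27 in SUZ12-/- H1 (adjusted p = 3.0e-07), 0.35 ± 0.27 in EED-/- H1 (adjusted p = 0.308) and 0.30 ± 0.27 in EZH2-/-/EZH1-/- H1 cells (adjusted p = 0.395, SE, limma). The rise of DES in the average of the 3 lines therefore rested on SUZ12-/- H1, and without that line it was 0.32 (adjusted p = 0.268). Vimentin (VIM), the intermediate filament protein of mesenchyme, had 3354 and 3384 TPM in SUZ12-/- H1 cells, and DES made up 3.79 and 4.12% of the pair there and at most 0.0725% in the other PRC2-null samples. The share was as high in EZH2-/- H1 cells (4.06 and 4.61%), where both genes were low.

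**Figure D3:**
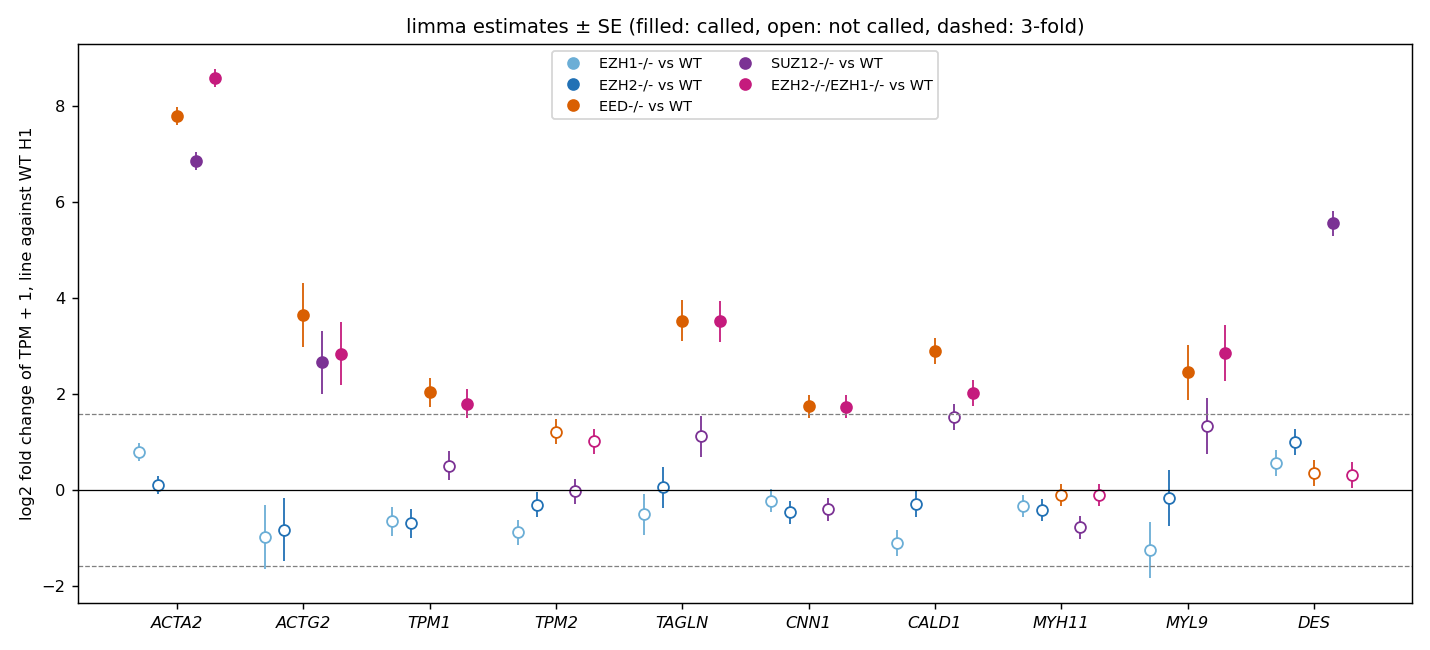
log2 fold change of TPM + 1 against WT H1 (vertical axis, limma estimate ± SE) of the 10 genes in the 5 knockout lines, with filled points for genes that passed an adjusted p of at most 1% and 3-fold (dashed lines) and open points for the rest. All points of EZH1-/- H1 and EZH2-/- H1 cells are open, 7 genes are filled in EED-/- H1 and EZH2-/-/EZH1-/- H1 cells, and DES is filled in SUZ12-/- H1 cells alone.

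In cells that lack only EZH1 or only EZH2, none of the 10 genes passed the test in limma. For EZH1-/- H1 cells 0.0995% of all genes tested passed in either direction, and for EZH2-/- H1 cells 0.0%. At an unadjusted p under 0.05, ACTA2 was higher and TPM1, TPM2 and CALD1 were lower in EZH1-/- H1 than in WT H1 cells (4 genes, lowest adjusted p = 0.0794). The largest of these differences was that of CALD1, at -1.12 ± 0.27 on the log2 scale (SE, adjusted p = 0.0841). In EZH2-/- H1 cells 2 genes had an unadjusted p under 0.05, DES with a higher and TPM1 with a lower value (lowest adjusted p = 0.445). For the unadjusted cutoff no share of all genes was computed, so these counts cannot be set against other genes. The median log2 fold change of the 10 genes was -0.59 for EZH1-/- and -0.31 for EZH2-/- cells, beside 0.02 and -0.06 for all genes.

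The 3 PRC2-null lines were then compared with one another. SUZ12-/- H1 cells had more DES and less TAGLN and CNN1 than EED-/- H1 cells, 1 gene higher and 2 lower of 10, where 3.54% of all genes were higher and 2.58% lower. DES differed by 5.20 ± 0.27 (adjusted p = 2.6e-06), TAGLN by -2.41 ± 0.43 (adjusted p = 0.00290) and CNN1 by -2.14 ± 0.24 on the log2 scale (adjusted p = 0.000183, SE, limma). Another 4 genes, ACTA2 (-0.94), TPM1 (-1.53), TPM2 (-1.24) and CALD1 (-1.38), had an adjusted p of at most 0.00790 and stayed under 3-fold. The difference of TAGLN was lost with scaling by median ratios (adjusted p = 0.0151), which also moved the share of higher genes among all calls from 57.8% to 70%, and without EED-/- sample 1 or 2 or SUZ12-/- sample 1 or 2 (0.0230 to 0.0256).

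Against EZH2-/-/EZH1-/- H1, SUZ12-/- H1 cells had 1 gene higher (3.32% of all genes) and 3 lower (1.14%). DES differed by 5.25 ± 0.27 (adjusted p = 2.1e-06), ACTA2 by -1.73 ± 0.19 (adjusted p = 0.000174), TAGLN by -2.40 ± 0.43 (adjusted p = 0.00390) and CNN1 by -2.13 ± 0.24 (adjusted p = 0.000226, SE, limma). Without EZH2-/-/EZH1-/- sample 2, ACTA2 stood at -1.58, just under 3-fold, and TAGLN at an adjusted p of 0.0258. TAGLN was also lost without SUZ12-/- sample 1 or 2 (0.0334 and 0.0330) and with scaling by median ratios (0.0112). EED-/- H1 and EZH2-/-/EZH1-/- H1 cells differed in 0 of the 10 genes in limma, where 0.089% of all genes differed. For this difference 2 of the 10, ACTA2 and CALD1, had an unadjusted p under 0.05 (lowest adjusted p = 0.0761), a cutoff at which no share of all genes was computed. For TAGLN the 95% interval of that difference ran from -0.95 to 0.94 and for CNN1 from -0.54 to 0.53 on the log2 scale, while for ACTG2 it ran from -2.26 to 0.67 and for MYL9 from -0.88 to 1.68, too wide to call the levels alike.

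In H1-EED-/-/EED-OE cells the same genes were followed after DOX was withdrawn. With 1 sample per time point there is no test, and a gene is counted where its log2(TPM + 1) differed at least 3-fold from the sample with DOX. At day 8 none of the 10 genes was 3-fold higher or lower, where 2.78% of 19011 genes were higher and 0.589% lower. At day 12 ACTA2 was higher and ACTG2 lower (2.84% and 0.4% of all genes). By day 16 ACTA2 and CALD1 were higher and ACTG2 and TAGLN lower (3.81% and 0.894%). At day 20 ACTA2 and CALD1 were higher and none lower (9.07% and 2.69%). At day 24 there were 5 higher, ACTA2, TPM1, TAGLN, CALD1 and DES, and none lower (12.9% and 4.67%). At day 28 it was 6, ACTA2, ACTG2, TPM1, TAGLN, CALD1 and MYL9, and none lower (17.9% and 5.61%). The median difference of the 10 genes went from 0.49 at day 8 through -0.35, -0.74 and 0.06 to 1.47 at day 24 and 1.96 at day 28, while that of all genes lay between 0.11 and 0.40. With scaling by median ratios ACTG2 and TAGLN were 3-fold lower already at day 8 and none was higher through day 16, DES dropped out at day 24, and ACTA2, TAGLN and CALD1 were the 3 left at day 28.

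**Figure D4:**
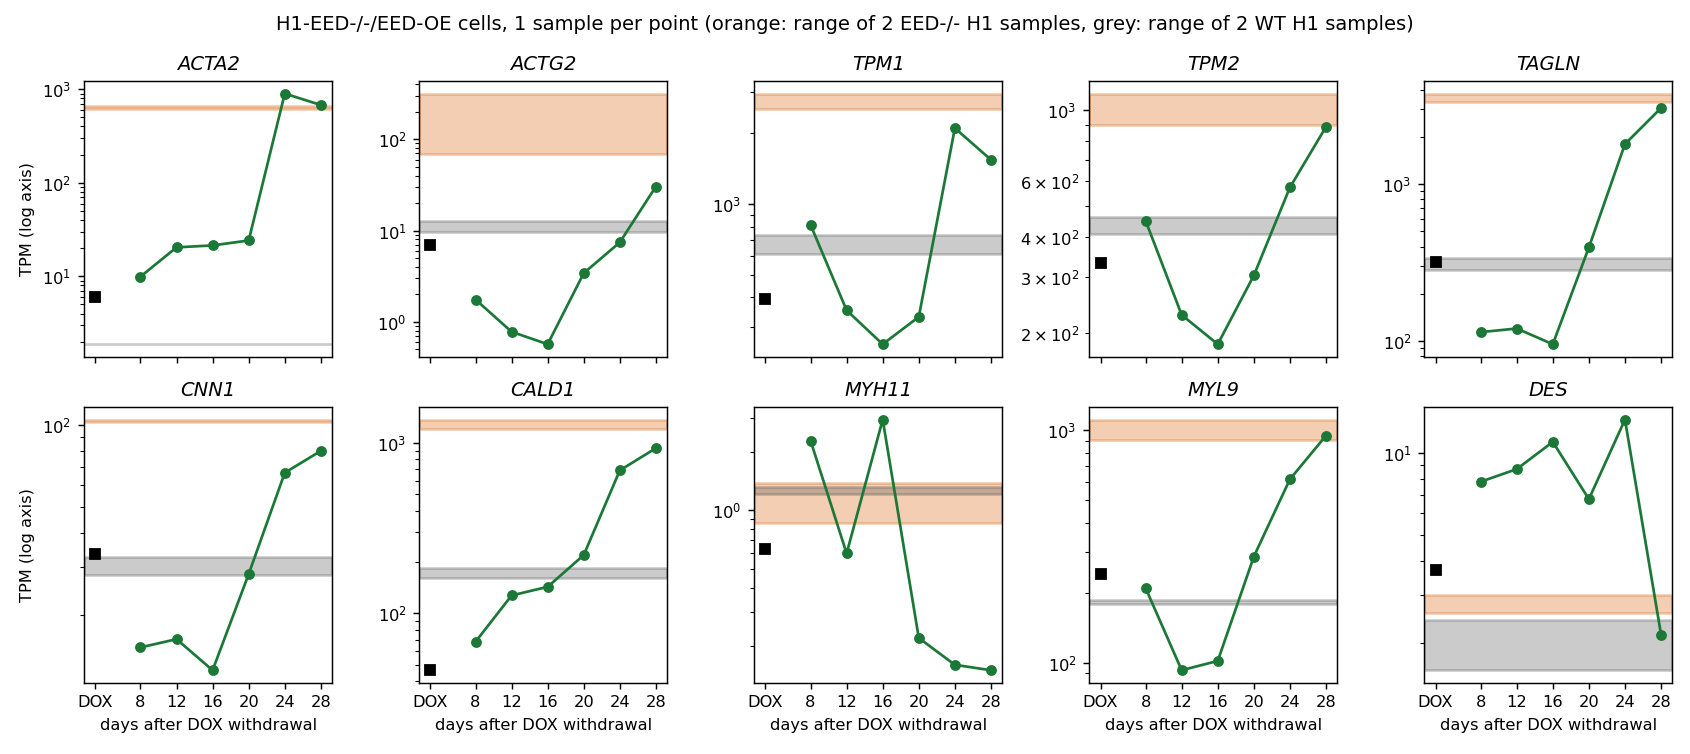
TPM of the 10 genes (log axes) in H1-EED-/-/EED-OE cells with DOX (black square) and 8 to 28 days after its withdrawal (green points, 1 sample each), with bands for the range of the 2 EED-/- H1 (orange) and the 2 WT H1 samples (grey). ACTG2, TPM1, TPM2, TAGLN and CNN1 have their lowest value at day 16, and TPM2, TAGLN, CNN1, CALD1, MYL9 and ACTG2 their highest at day 28.

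ACTA2 was 3-fold above its level with DOX from day 12 on, on the log2(TPM + 1) scale as deposited. It had a TPM of 6.03 with DOX and 9.92, 20.4, 21.4, 24.2, 899 and 678 at days 8, 12, 16, 20, 24 and 28. The early part of this course is small, with a ratio of 3.38 to the DOX sample at day 12 and 4.01 at day 20, while the ratio was 149 at day 24. Scaling by median ratios left ACTA2 under 3-fold until day 20, when CALD1 passed with it. Its level with DOX was itself above the 1.90 and 1.88 of WT H1, and its values at days 24 and 28 lay above both EED-/- H1 samples (614 and 658). CALD1 was higher on each successive day, with 46.3 with DOX and 68.0, 127, 143, 219.6, 689.7 and 931 over the same days, and stayed under the 1214 and 1369.97 of EED-/- H1.

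TAGLN, MYL9, TPM1, TPM2, CNN1 and ACTG2 had their lowest values at day 12 or 16, before their late high ones. TAGLN had a TPM of 320.1 with DOX, 114, 120.3 and 95.5 at days 8 to 16, 395 at day 20, 1801 at day 24 and 3057 at day 28. MYL9 had 242 with DOX, then 209, 92.9, 102, 286, 614 and 946. TPM1 had 396 with DOX, then 815, 352, 253, 330.4, 2107 and 1544. In these 3 genes the values at days 12 and 16 lay under the DOX sample and those at days 24 and 28 above it. CNN1, with 33.6 with DOX, lay between 12.5 and 28.3 until day 20 and at 66.6 and 80.1 on the last 2 days, 2.38 times the DOX sample at day 28. ACTG2 had 6.98 with DOX, 0.57 at day 16 and 30.4 at day 28, and TPM2 had 331, 185 and 886 in the same samples. At day 28, 4 of the 6 genes that were then 3-fold higher than with DOX, ACTG2, TPM1, TAGLN and CALD1, lay under both EED-/- H1 samples, ACTA2 above both and MYL9 between them.

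DES and MYH11 had other courses. DES had a TPM of 3.72 with DOX, 7.82, 8.70, 10.95, 6.75 and 13.2 at days 8 to 24, and 2.15 at day 28. MYH11 was at 0.63 with DOX, at 2.29, 0.60 and 2.94 at days 8, 12 and 16, and at 0.22, 0.16 and 0.15 at days 20, 24 and 28. At day 8 the ratio of its TPM to the DOX sample was 3.63, between values too low to pass 3-fold on the log2(TPM + 1) scale. Its lowest values thus included days 24 and 28, on which ACTA2, TAGLN and CALD1 were highest. Among the muscle actins ACTA2 made up 9.71% with DOX, 58.2% at day 16, 35.5% at day 24, when ACTC1 held 63.9%, and 61.0% at day 28.

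Other genes of smooth muscle contraction were described from a list of kinases, phosphatase subunits, actin-binding and adhesion proteins. Of 17 such genes tested, 4 rose and 0 fell over the PRC2-null lines on average, where 13.6% of all genes rose and 5.36% fell, with a median log2 fold change of 0.89 beside 0.28 for all genes. The 4 included SMTN, an actin-binding protein of contractile smooth muscle (1.80, adjusted p = 2.7e-05), and LMOD1, an actin nucleator of smooth muscle (2.57, adjusted p = 9.5e-06). Also among the 4 were the intermediate filament gene SYNM (2.57, adjusted p = 9.9e-06) and ITGA8, an integrin subunit (1.86, adjusted p = 0.000199). ITGA8 had a TPM of 10.5 and 11.1 in SUZ12-/- H1, 0.4 to 2.85 in the other PRC2-null samples and 0 in WT H1. MYLK, the kinase of the light chain coded by MYL9, did not pass (0.79, adjusted p = 0.222), with 8.34 and 9.59 TPM in WT H1 and 4.12 to 30.8 in PRC2-null samples. Of 13 cytoskeletal genes of non-muscle cells 2 rose, TAGLN2 and VIM (3.97, adjusted p = 1.6e-07), and 0 fell, a share near that of all genes, while ACTB and ACTG1 stood at -0.12 and 0.16.

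Of 14 regulators of these genes, 6 rose and 0 fell in the average (13.6% and 5.36% of all genes), with a median log2 fold change of 1.27 beside 0.28 for all genes. They were TGFB1 (4.18, adjusted p = 1.6e-07) and TGFB2 (5.23, adjusted p = 3.0e-08), ligands known to induce contractile genes, CSRP1 (3.61, adjusted p = 4.8e-08) and FHL2 (1.86, adjusted p = 0.000247), LIM proteins that act with SRF, and the transcription factors MEF2C (2.10, adjusted p = 0.000143) and KLF4 (2.20, adjusted p = 2.2e-05), the latter known as a repressor of contractile genes. SRF itself stood at -0.62 (adjusted p = 0.00559, under 3-fold), with 42.4 and 43.5 TPM in WT H1 and 18.5 to 35.4 in PRC2-null samples. MYOCD, the smooth and cardiac muscle partner of SRF, stood at 1.26 (adjusted p = 0.00226, under 3-fold), with 1.11 and 1.19 TPM in WT H1 and 2.30 to 8.49 in PRC2-null samples. MKL1, the gene of the partner MRTF-A, stood at 1.28 (adjusted p = 0.000281).

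Markers of other cell types were also described over the PRC2-null lines on average, and their part in the results was not tested. For all the lists, 13.6% of all genes rose and 5.36% fell. Of 13 striated and cardiac muscle genes tested, 7 rose (ACTC1, MYL3, MYL4, MYL7, TNNI1, TNNC1 and NKX2-5) and 1 fell (TNNI3). Their list of 19 genes summed to 136 to 242 TPM in the samples of the WT, EZH2-/- and EZH1-/- lines and to 356 to 2278 in the PRC2-null samples, where the heavy chains MYH6 and MYH7 had at most 0.41 TPM and the ventricular light chain MYL2 at most 0.20. Of 10 mesenchyme markers 9 rose and 1 (THY1) fell, and their sum went from 416 to 754 TPM in the former to 4407 to 24388 TPM in the latter, highest in SUZ12-/- H1 cells, in which the 10 contractile genes had the lowest sum of the 3 lines. DCN, a proteoglycan of fibroblasts, had 2165 and 2287 TPM in SUZ12-/- H1 and 5.26 to 30.9 in the other PRC2-null samples. Of 4 pericyte markers 2 rose (MCAM and KCNJ8), with sums of 17.7 to 31.2 and 71.2 to 274 TPM, which did not overlap. Of 5 endothelial markers 3 rose (PECAM1, CDH5 and TIE1), with sums of 46.1 to 145 and 52.6 to 506 TPM, which overlapped. Of 5 mesothelial markers 2 rose (TBX18 and TCF21) and 1 fell (UPK3B), with sums of 1.98 to 13.1 and 5.8 to 38.9 TPM, which overlapped too. All 5 pluripotency genes fell.

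**Figure D5:**
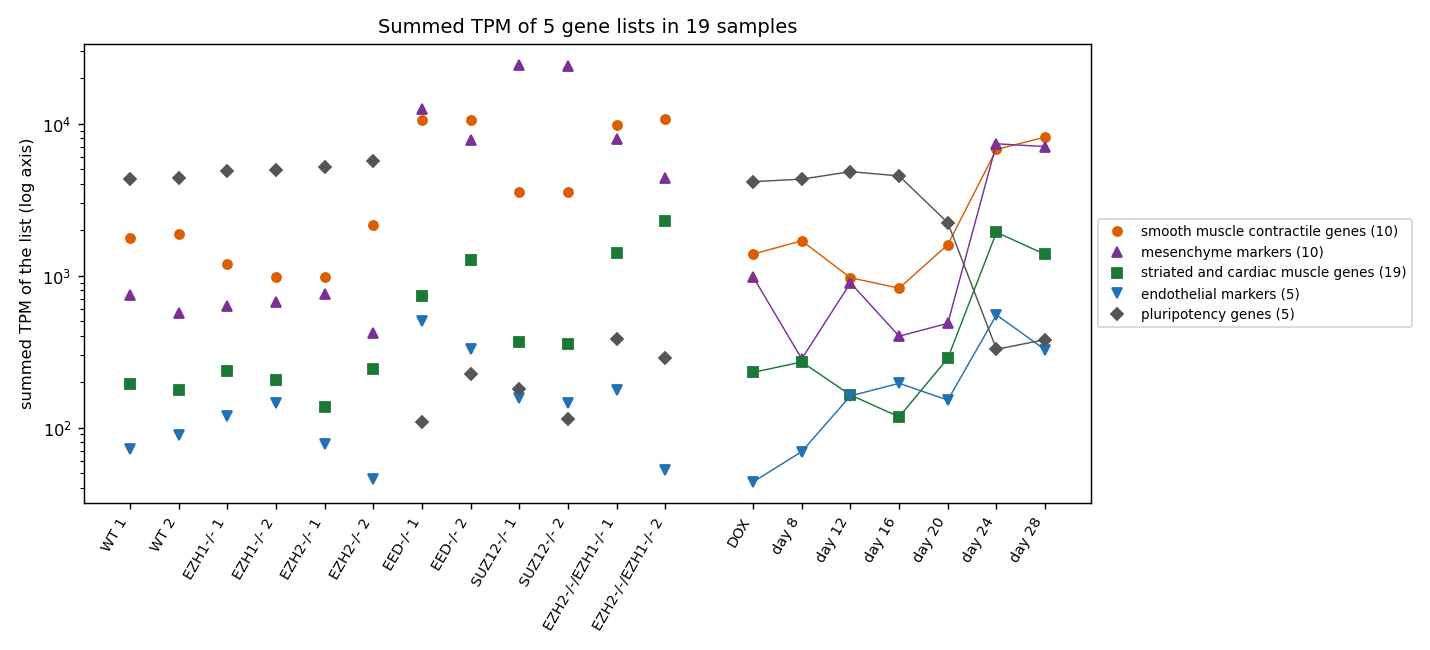
Summed TPM (log axis) of the 10 smooth muscle contractile genes and of 4 other gene lists in the 12 samples of the 6 lines and, joined by lines on the right, in the 7 samples of H1-EED-/-/EED-OE cells. In the time course the sum of the 10 genes is lowest at day 16 (826) and reaches 6771 and 8155 at days 24 and 28, when the pluripotency genes sum to 327 and 379.

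In the time course the sum of the 10 genes was 1386 TPM with DOX, 1694, 968, 826 and 1598 at days 8 to 20, and 6771 and 8155 at days 24 and 28. The pluripotency genes summed to 4153 with DOX, 4314 to 4831 at days 8 to 16, 2228 at day 20, and 327 and 379 afterwards. Mesenchyme markers went from 485 at day 20 to 7372 and 7065, and striated and cardiac genes from 285 to 1928 and 1378. Most of the latter sum at day 24 was ACTC1 alone, with 1616 TPM, beside 264 TPM at day 28. The high sums of the 10 genes were thus in the same samples, of days 24 and 28, as those of the mesenchyme and cardiac lists and the low sums of the pluripotency genes. MYH11 was not high on these days (0.16 and 0.15 TPM), nor was DES at day 28 (2.15 TPM).

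The order of the 10 genes by level differed between lines. In WT H1 cells it was TPM1, TPM2, TAGLN, MYL9, CALD1, CNN1, ACTG2, DES, ACTA2 and MYH11, and the samples of the neighbours MYL9 and CALD1 and of DES and ACTA2 overlapped. In EED-/- H1 cells it was TAGLN, TPM1, CALD1, TPM2, MYL9, ACTA2, ACTG2, CNN1, DES and MYH11, with overlaps between TPM2 and MYL9 and between ACTG2 and CNN1. The same pair led EZH2-/-/EZH1-/- H1 cells, where the 5 genes from TPM1 through MYL9, ACTA2 and TPM2 to CALD1 overlapped from neighbour to neighbour. In SUZ12-/- H1 cells TPM1 led, TAGLN was second, DES stood above ACTG2 and CNN1, and no neighbours overlapped. MYH11 was last in all 6 lines.

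Across the 19 samples the 10 genes did not vary as one. The Pearson correlation of log2(TPM + 1) of each gene with the mean z-score of the other 9 was 0.81 to 0.93 for 8 genes, -0.10 for DES and -0.26 for MYH11, over samples that include replicates and successive days. The 8 other genes whose pattern was most like the mean z-score of all 10, among 19711, were LRPAP1, TGFB2, FAM26E, SIK1, CTGF, DCLK2, PRSS23 and CDKN2B, with correlations of 0.964 to 0.976 over 19 samples. LRPAP1, a chaperone of lipoprotein receptors, had 70.7 to 110.8 TPM in samples of the WT, EZH2-/- and EZH1-/- lines and 259.98 to 496 in PRC2-null samples. CTGF, a secreted matricellular protein, went from 38.1 to 101 in the former to 271 to 2543 in the latter, and had 56.6 to 94.3 TPM in the DOX sample and until day 20 and 819.9 to 1213.9 at days 24 and 28. CDKN2B, a cell cycle inhibitor, had at most 0.66 TPM in the former and 34.1 to 562 in the latter.

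The genes lie on 9 chromosomes. In GENCODE release 44 on GRCh38, the build of the mRNA reference named in the study's methods, ACTG2 lies at chr2:73892314-73919865 and DES on the same chromosome at chr2:219418377-219426735, CALD1 at chr7:134744252-134970729, TPM1 at chr15:63042620-63071915, TAGLN at chr11:117199370-117207464, CNN1 at chr19:11538767-11550323 and MYL9 at chr20:36541497-36551447, all on the plus strand. TPM2 at chr9:35681992-35690056, ACTA2 at chr10:88935074-88991339 and MYH11 at chr16:15703135-15857028 are on the minus strand. Exons of ACTA2 overlap those of its antisense RNA ACTA2-AS1 (1638 bases, at most 6.85 TPM) and of FAS (387 bases, 1.06 to 155 TPM), and exons of TPM1 overlap those of TPM1-AS (2645 bases, at most 14.6 TPM). No exon of ACTG2, TPM2, CNN1, CALD1 or MYL9 overlaps one of another annotated gene.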

How the data were processed

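RNA libraries (TruSeq) of 19 samples of H1 cells were sequenced. The authors aligned reads with Bowtie 2 to an mRNA reference on GRCh38 and quantified them with RSEM, per the labels and the study's methods, and the deposited values are TPM for 33382 genes per sample. The labels also list hg19, with no role. Each sample sums to between 999999.2 and 1000001.0 TPM, so depth is unknown, no counting interval is given, and precision rests on replicates. Genes were joined by Ensembl identifier. No comparisons made by the authors were used.

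In R 4.3.3, limma 3.58.1 (lmFit, contrasts.fit, eBayes with trend and robust) was fitted to log2(TPM + 1) of 12 samples with a mean for each of 6 lines (6 residual degrees of freedom). Genes whose TPM reached 1 in 2 or more of them (19100) were kept, and Benjamini-Hochberg adjusted p of at most 1% with at least 3-fold was called, after the thresholds of the study. The script was tested on simulated data. The time course (7 samples without replicates) was compared with the DOX sample over the 19011 genes that reached a TPM of 1 in any of them, with no test. Replicate numbers follow the accession order and name samples only. The 10 genes and the other gene lists were chosen with earlier results of these data known, so no list is tested as a set. Named are the 10 genes, examples from the lists, and the 8 genes most correlated over 19 samples with their mean z-score. Python 3.11.15, numpy 2.4.6, pandas 2.3.3 and matplotlib 3.10.9 were used. Alternatives were a pseudocount of 0.1, no filter, median-ratio scaling, a replicate block, an adjusted p of 5% without a fold threshold, leaving out each sample, fits of 4 samples and, for the time course, WT H1 as reference and 2-fold. Leaving out each PRC2-null line was chosen after seeing the data. RGS5, on 2 rows, was left out of the pericyte list.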

Additional observations from a re-analysis of the deposited data

Results flagged for a closer look

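Differences between PRC2-null lines in their change from WT H1, tested as the direct contrast of the lines in limma with the same control samples cancelling out, passed for 7 pairs of gene and lines. SUZ12-/- H1 differed from EED-/- H1 cells in TAGLN (-2.41 on the log2 scale, 667 and 675 against 3355 and 3779 TPM), CNN1 (-2.14) and DES (5.20). From EZH2-/-/EZH1-/- H1 cells, SUZ12-/- H1 cells differed in ACTA2 (-1.73), TAGLN (-2.40), CNN1 (-2.13) and DES (5.25). Both samples of SUZ12-/- H1 lay outside the range of the other PRC2-null samples in each of these 4 genes. The mesenchyme markers summed to 24069.98 and 24388 TPM in SUZ12-/- H1 cells and to 4407 to 12436 in the other PRC2-null samples, and the part of this in the differences was not tested.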

How the results depend on the processing

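The log2 fold changes of the 10 genes in the PRC2-null average kept their sign under every alternative run. With 1 sample left out in turn, the number of the 10 genes called ranged from 4 to 6 in the PRC2-null average, 5 to 7 in EED-/- H1, 2 to 3 in SUZ12-/- H1, 4 to 7 in EZH2-/-/EZH1-/- H1, 2 to 3 for SUZ12-/- against EED-/- H1 and 2 to 4 for SUZ12-/- against EZH2-/-/EZH1-/- H1, and was 0 in each fit for EZH1-/- H1, EZH2-/- H1 and EZH2-/-/EZH1-/- against EED-/- H1. An adjusted p of 5% with no fold threshold gave 5 genes in SUZ12-/- H1 (4 up, 1 down) in place of 3, and 7 for SUZ12-/- against EED-/- H1 (1 up, 6 down) in place of 3. By that looser rule 8962 and 3736 of all 19100 genes were called in these comparisons. The fit of 4 samples gave 2 genes in EZH2-/-/EZH1-/- H1 in place of 7. That fit has fewer samples, and the replicates of this line differed most (median absolute log2 difference of 0.505). Neither was tested as a cause. In the time course, day 8 had 2 genes past 3-fold with a pseudocount of 0.1, 2 with WT H1 as reference and 2 with median-ratio scaling, in place of 0. At 2-fold there were 5 genes at day 8, 6 at day 12 and 8 at day 16, in place of 0, 2 and 4, and no share of all genes was computed at 2-fold. These genes went both ways. At day 16 ACTA2, CALD1, MYH11 and DES were higher and ACTG2, TAGLN, CNN1 and MYL9 lower. Scaling gave 2 at day 16 and 3 at day 28, in place of 4 and 6, and WT H1 as reference gave 1 at day 20 in place of 2. Where no cause is named, the cause was not tested. Without a filter on low values, MYL9 was lost in EED-/- H1 (adjusted p = 0.0118) and ACTG2 in SUZ12-/- H1 (0.016) and EZH2-/-/EZH1-/- H1 (0.013). Scaling also took ACTG2 in SUZ12-/- H1 (0.0135) and MYL9 in EED-/- H1 (0.0272) above the threshold of 1%.

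Samples with the same replicate number share only a number given in accession order: over 15 pairs of lines their deviations correlated by -0.121 to 0.218, with 1 pair above 0.1. With the replicate block, 6 genes were called in the PRC2-null average, 7 in EED-/- H1 and 3 in SUZ12-/- H1, the counts without it.

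With 2 samples per line, 1 per day and no read counts, the precision of small differences is limited. MYH11 in SUZ12-/- H1 cells, for example, passed at 5% but not at 1% (adjusted p = 0.0176), and with median-ratio scaling had an adjusted p of 0.00659 under 3-fold.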

Other observations

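The regulators of contractile genes had their own courses after DOX withdrawal. TGFB1 had a TPM of 6.44 with DOX, 6.42 at day 8, 18.05 at day 12, 37.5 at day 16, 141 at day 20, 421 at day 24 and 286 at day 28, above its DOX level from day 12 on. TGFB2 had at most 3.72 TPM until day 20 and 28.4 and 54.8 afterwards. MYOCD had 0.34 TPM with DOX, 0.14 to 0.29 at days 8 to 16, 2.64 at day 20, and 7.99 and 9.17 at days 24 and 28, and MEF2C at most 1.40 until day 20 and 21.3 and 22.6 afterwards. KLF4 had its highest TPM of the 19 samples at day 20, with 44.2, beside 2.98 with DOX and 3.77 at day 24. SRF lay between 25.2 and 50.3 throughout.

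The shares of the non-muscle relatives also differed between samples. MYH9 made up 84.2 and 90.0% of MYH9, MYH10 and MYH11 in EED-/- H1 and 52.9 and 57.9% in WT H1 cells, and 85.8% at day 28 beside 68.3% with DOX. Among the transgelins TAGLN2 held the larger share, 54.5%, at day 16, when TAGLN was lowest, and 19.8% at day 28.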
